A study of Mus musculus with 18 samples.

Results

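The 2',5'-oligoadenylate synthetase (OAS) family was followed through 18 mouse RNA-seq libraries, as the 8 genes Oas1a, Oas1b, Oas1c, Oas1g, Oas2, Oas3, Oasl1 and Oasl2. They are 8 of the 26143 genes measured and 8 of the 12 Oas and Oasl symbols in the table, and they were taken by symbol. The family was chosen from its difference between E20/p53 and E20 tongue in these same libraries, so that difference is described here and not tested. All 8 passed the filter on low values. The E20/p53 group, 6 libraries of tongue, carried the PIK3CA allele H1047R and a heterozygous p53 allele R172H, both behind a loxP-flanked stop (LSL), together with K14-Cre, a recombinase driven by the keratin 14 promoter of basal keratinocytes. The E20 group, 6 libraries of tongue, carried the LSL-PIK3CA H1047R allele. The p53 group, 3 libraries of tongue, carried the heterozygous LSL-p53 R172H allele. The WT group was 3 libraries of wild type esophagus. K14-Cre is named for E20/p53 alone. H1047R activates the catalytic subunit of PI3-kinase, and R172H alters the DNA-binding domain of p53. The series title speaks of tumours started with 4NQO, a carcinogen, and the labels do not say which libraries had it. The labels call every sample squamous epithelium, and they give neither ages nor separate animals, so the p-values here measure no more than the spread of these libraries, which may be technical. In each comparison with WT, genotype and tissue cannot be told apart.

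The OAS proteins are sensors of double-stranded RNA, a molecule that viruses make and that can also leak from a cell's own genome or mitochondria. On binding it, the active synthetases join ATP into short 2',5'-linked oligoadenylates, called 2-5A. 2-5A serves as a second messenger that leads to the breakdown of cellular and viral RNA and slows protein synthesis. Interferons raise OAS transcription through a complex that holds STAT2 and IRF9 and binds a DNA element called the ISRE, so OAS RNA is widely used as a readout of interferon signalling.

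The libraries held 14592000 to 18176000 counted reads. They fell into 6 sets of 3, which are E20/p53 1 to 3, E20/p53 4 to 6, E20 1 to 3, E20 4 to 6, p53 and WT. Across genes, 2 libraries of the same set had a Pearson's r of at least 0.991, while libraries of 1 group from different sets had at most 0.944. The study does not name these sets, which became visible from the values, so differences between them are described without a test. The labelled squamous epithelium was checked with 7 keratinocyte markers, whose summed level was 1047 to 1057 CPM (counts per 1000000 reads on the authors' scale) in E20/p53 1 to 3. That sum was 3.86 to 5.07 CPM in E20/p53 4 to 6, 87.5 to 105 CPM in E20 1 to 3, 3.30 to 3.604 CPM in E20 4 to 6, 5.23 to 6.56 CPM in p53 and 119 to 125 CPM in WT. Krt5 had no read in E20/p53 4 to 6. The sum of 5 fibroblast markers ran the other way in E20/p53, at 83.5 to 88.2 CPM in libraries 1 to 3 and 15960 to 17840 CPM in libraries 4 to 6. It was 11190 to 14170 CPM in E20, 6244 to 6939 CPM in p53 and 1409 to 1528 CPM in WT. In E20/p53 4 to 6, in both E20 sets and in p53 the fibroblast sum was above the keratinocyte sum, which goes against the labelled epithelium. In WT the fibroblast sum was also above the keratinocyte sum. It was nearly all Col1a2 there, at 1344 CPM, while Dcn was at 2.33 CPM and Lum had no read. Collagens made up nearly all of the sum in E20/p53 4 to 6 as well, with Col1a1 at 9256 CPM and Col1a2 at 7391 CPM. Dcn was at 15.4 CPM in that set, and Lum had no read there or in E20 1 to 3. The simple-epithelium keratins Krt18 and Krt8 averaged 227.5 and 41.5 CPM in WT, and together with Epcam they summed to 9.72 to 10.2 CPM in E20/p53 1 to 3 and to at most 0.261 CPM in the other tongue libraries. The groups are therefore called by their names alone.

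The members lie on mouse chromosome 5 in 2 blocks (GENCODE M21, mm10). Oas2 (120730333 to 120749853, minus strand), Oas3 (120753098 to 120777661, minus), Oas1c (120800194 to 120812514, minus), Oas1b (120812635 to 120824163, plus), Oas1g (120876142 to 120887613, minus) and Oas1a (120896256 to 120907521, minus) share a block of 191.32 kb that also holds the other Oas1 genes. Oasl2 (114896936 to 114912234, plus) and Oasl1 (114923240 to 114937915, plus) form a block of 40.98 kb. No other protein-coding gene lies inside either block. The flanking gene 2210016L21Rik, 4.243 kb from Oasl1, kept to between 33.1 and 40.6 CPM in all 6 sets, while Dtx1 and Rph3a, on either side of the larger block, did not pass 0.272 CPM in any set.

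RefSeq promoter sequences of build GRCm38.p6 were found for 6 members, all but Oas1b and Oas2. The ISRE core, GAAANNGAAA on either strand, was searched in the 250 bases before each start and occurred in Oas1a, Oas1g, Oas1c and Oas3. Of 32851 promoters of the same length, 2.98% held it. The stretches below are shown because the genes that carry the core include Oas1a and Oas1g, whose differences between E20/p53 and E20 were among the largest of the family, and Oas1c and Oas3, whose differences there were the smallest. Each is 120 bases, printed 5' to 3' on the gene's own strand up to or near its start, with every base of a core match in capitals.
Oas1a, chr5:120907526-120907645, minus strand: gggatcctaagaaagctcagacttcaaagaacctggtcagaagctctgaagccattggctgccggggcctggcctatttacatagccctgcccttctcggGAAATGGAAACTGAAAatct
Oas1g, chr5:120887614-120887733, minus strand: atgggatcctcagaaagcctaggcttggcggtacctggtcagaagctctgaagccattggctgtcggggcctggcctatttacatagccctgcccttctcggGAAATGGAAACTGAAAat
Oas1c, chr5:120812515-120812634, minus strand: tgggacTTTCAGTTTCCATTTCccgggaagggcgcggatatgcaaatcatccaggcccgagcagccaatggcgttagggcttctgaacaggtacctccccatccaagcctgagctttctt
Oas3, chr5:120777660-120777779, minus strand: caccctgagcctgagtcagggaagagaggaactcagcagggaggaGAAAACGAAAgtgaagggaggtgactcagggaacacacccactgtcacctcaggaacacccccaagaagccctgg
Oasl2, chr5:114896814-114896933, plus strand: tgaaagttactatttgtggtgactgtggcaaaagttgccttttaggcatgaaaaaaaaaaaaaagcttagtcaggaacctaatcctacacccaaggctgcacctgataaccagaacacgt

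The run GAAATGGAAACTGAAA, 16 bases that hold 2 overlapping core matches, stands in both Oas1a and Oas1g, inside a stretch of 56 bases that their windows share without a mismatch. The 120 bases shown for Oas1c are all that separates its start from that of Oas1b, which is read the other way. The same 16-base run lies there in reverse complement, nearer to the start of Oas1b. Oas3 held 1 match with other middle bases. Oasl2, shown for contrast, and Oasl1 held none in their 250 bases, which says only that these letters are not in this window.

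Summed over the 8 members, the family stood at 9.59 to 16.97 CPM in the 6 E20/p53 libraries, 227 to 856 CPM in the 6 E20 libraries, 118 to 139 CPM in the 3 p53 libraries and 14.8 to 16.0 CPM in the 3 WT libraries. The range of E20/p53 tongue enclosed that of WT esophagus, and E20 tongue was highest, with no overlap between E20 and any other group. In bulk samples, fewer cells that express these genes and less RNA per cell cannot be told apart. Both sets of E20 differed, with a summed level of 278 ± 48.4 CPM in libraries 1 to 3 and 829.4 ± 25.5 CPM in libraries 4 to 6 (SD, n = 3 each). In E20/p53 it was 16.1 ± 1.41 CPM in libraries 1 to 3 and 10.7 ± 1.24 CPM in libraries 4 to 6, in p53 128 ± 10.3 CPM and in WT 15.4 ± 0.616 CPM (SD, n = 3 each). The make-up of the total also differed between sets. Oasl2 gave 31.4% and 69.1% of the total in the E20/p53 sets, 61.6% and 47.8% in the E20 sets, 42.7% in p53 and 27.8% in WT. In WT Oas3 gave the largest share, 32.2%, against 0.296% in E20 1 to 3.

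**Figure D1:**
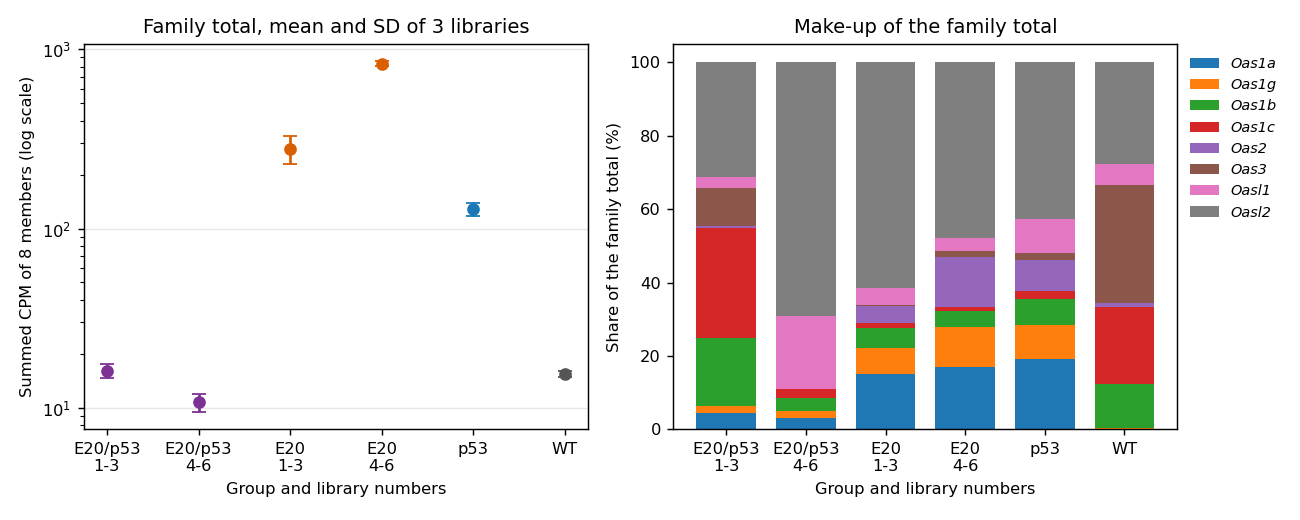
Left, the summed CPM of the 8 members (log scale) as mean and SD of the 3 libraries in each set. Right, the share of each member in that sum (%). Both E20/p53 sets and WT lie between 10.7 and 16.1 CPM on the left, and E20 4 to 6 is highest at 829.4 CPM. On the right Oas3 is the largest part in WT alone.

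A linear model in limma over all 15235 genes tested, with Benjamini-Hochberg adjustment over them, gave the comparisons, and an adjusted p under 0.05 was called. In E20/p53 against E20, the contrast from which the family was chosen, 8 of 8 members were called lower, where 19.6% of all genes were, and nothing is read from this. The other contrasts share libraries with that one, except p53 against WT. In p53 against WT 6 of 8 members rose and 0 fell, where 29.3% of all genes rose and 24.9% fell. Against WT, E20 also had 6 of 8 members higher and 0 lower (all genes, 29.0% higher and 26.4% lower). Of the 8, 6 fell and none rose in E20/p53 against p53 (all genes, 12.9% lower). In E20 against p53, 3 of 8 rose and 0 fell (all genes, 14.5% higher and 16.4% lower). Last, 2 of 8 rose and 1 fell in E20/p53 against WT (all genes, 26.5% higher and 21.6% lower). The median log2 change of the members was -4.88 in E20/p53 against E20, -3.32 in E20/p53 against p53, 1.51 in E20 against p53, -0.29 in E20/p53 against WT, 5.14 in E20 against WT and 3.65 in p53 against WT. Over all genes tested, these medians lay between -0.01 and 0.05. With each set averaged to 1 value (2 residual degrees of freedom), limma called 0 members in each of the 6 comparisons. Of all 15235 genes it called at most 8 in any comparison, so the 0 says nothing about the members. At an unadjusted p under 0.05, it then had 5 members in E20/p53 against p53 (2.77% of all genes), 1 in E20 against p53 (4.13%), 1 in E20/p53 against WT (10.3%), 5 in E20 against WT (13.6%) and 5 in p53 against WT (10.7%).

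**Figure D2:**
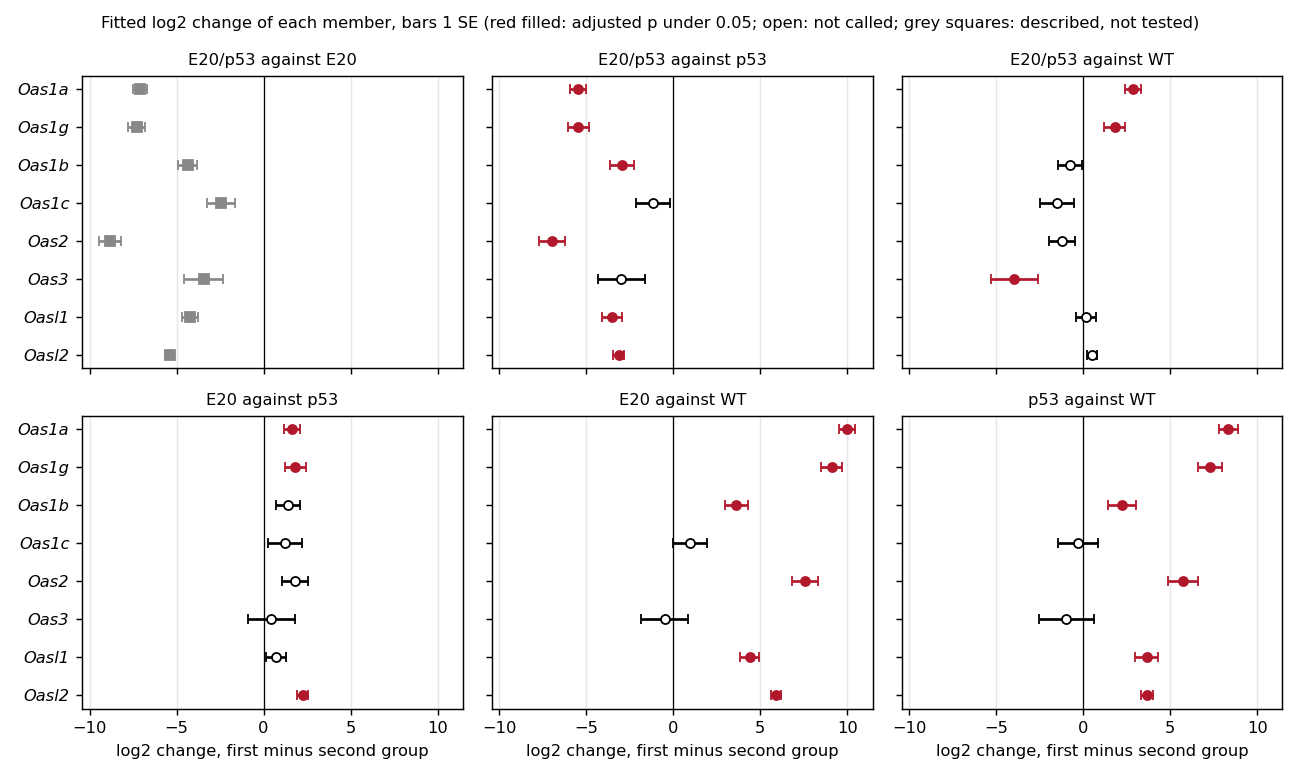
Fitted log2 change of each member in the 6 comparisons, first group minus second, with bars of 1 SE. Red filled points passed the adjusted threshold, open points did not, and grey squares belong to the contrast from which the family was chosen and are described without a test. Oas1a, Oas1g, Oas1b, Oas2, Oasl1 and Oasl2 lie to the left of 0 in E20/p53 against p53 and to the right in E20 and in p53 against WT, while Oas1c and Oas3 are open in each of those 3.

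Oas1a and Oas1g encode small synthetases that make 2-5A, and they are close copies. Oas1a stood at 0.494, 0.841 and 0.843 CPM in E20/p53 1 to 3 and at 0.298, 0.398 and 0.329 CPM in E20/p53 4 to 6, against 33.7, 43.2 and 49.1 CPM in E20 1 to 3 and 137, 138 and 144 CPM in E20 4 to 6. It was at 25.1, 22.9 and 25.8 CPM in p53 and at 0, 0.0575 and 0 CPM in WT, where the 3 libraries held 1 read in all. The 6 sets did not overlap for Oas1a, so that its level descended from E20 4 to 6 through E20 1 to 3, p53, E20/p53 1 to 3 and E20/p53 4 to 6 to WT. In E20/p53 the log2 change against E20 was -7.11 (SE 0.39). Against p53 it fell by 5.48 on the log2 scale (SE 0.48, adjusted p = 6.9e-07 by limma), lower in 6 of 6 libraries.

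Against WT, Oas1a rose in all 3 tongue groups. The read ratio was 27.2 for E20/p53 over WT (95% exact interval 4.68 to 1093), 4504 for E20 over WT (808 to 177900) and 1235 for p53 over WT (221 to 48820), with intervals that cover counting error only. The fitted log2 changes were 2.87 in E20/p53 (SE 0.48, adjusted p = 1.1e-04), 9.98 in E20 (SE 0.48, adjusted p = 6.0e-11) and 8.35 in p53 (SE 0.55, adjusted p = 4.9e-09), and they depend on the 1 read added to each value. With log2 of CPM plus 1 the call in E20/p53 against WT was lost (log2 0.57, adjusted p = 0.244). In E20 against p53 Oas1a rose by 1.63 on the log2 scale (SE 0.48, adjusted p = 0.016). It lost this call without p53 library 1 or 2 (adjusted p = 0.0509 and 0.0601) and without E20 4 to 6 (log2 0.75, adjusted p = 0.162).

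Oas1g followed Oas1a at a lower level, with r = 0.989 between both genes over the 18 libraries as a description. It was at 0.123, 0.392 and 0.337 CPM in E20/p53 1 to 3 and at 0.0596, 0.171 and 0.329 CPM in E20/p53 4 to 6, where both sets overlapped. In E20 it was at 15.9, 20.39 and 21.6 CPM in libraries 1 to 3 and at 86.9, 90.3 and 93.3 CPM in libraries 4 to 6, in p53 at 12.4, 10.2 and 12.7 CPM, and in WT 1 read stood in 3 libraries. Oas1g was lower in every E20/p53 library than in every E20 library (log2 -7.29, SE 0.49). It fell in E20/p53 against p53 (log2 change -5.47 with SE 0.60, adjusted p = 8.4e-06) and rose in p53 against WT (log2 change 7.29 with SE 0.69, adjusted p = 3.4e-07) and in E20 against WT (log2 change 9.11 with SE 0.60, adjusted p = 3.0e-09). Its rises were smaller in E20 against p53 (log2 change 1.82 with SE 0.60, adjusted p = 0.0298) as well as in E20/p53 against WT (log2 change 1.81 with SE 0.60, adjusted p = 0.0202). The first was lost without any 1 of the p53 libraries or of E20 4 to 6 (adjusted p 0.0596 to 0.101), and the second without WT library 1 or 2 (adjusted p = 0.0757 and 0.0836), and in the second the libraries overlapped. Without the whole set E20 4 to 6 the first came to log2 0.71 (adjusted p = 0.296), and with log2 of CPM plus 1 the second came to 0.27 (adjusted p = 0.672).

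Of the 50-base stretches in the Oas1a transcripts, 57.6% also occur in Oas1g, and of those in Oas1g 45.2% occur in Oas1a, so reads could be split between them or set aside, depending on counting settings that no source used here states. The sum of both genes does not depend on how reads are split, though it would lack any reads that were set aside. It was 1.01 ± 0.341 and 0.528 ± 0.155 CPM in the E20/p53 sets, 61.3 ± 10.7 and 230 ± 6.76 CPM in the E20 sets, 36.4 ± 2.84 CPM in p53 and 0.0392 ± 0.034 CPM in WT (SD, n = 3 each). Oas1a made up 60.8% to 71.9% of the sum in the tongue sets, a share that can depend on the counting settings. The 4 other Oas1 genes of the table, Oas1d, Oas1e, Oas1f and Oas1h, held at most 9 reads in a library and 57 reads in all.

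**Figure D3:**
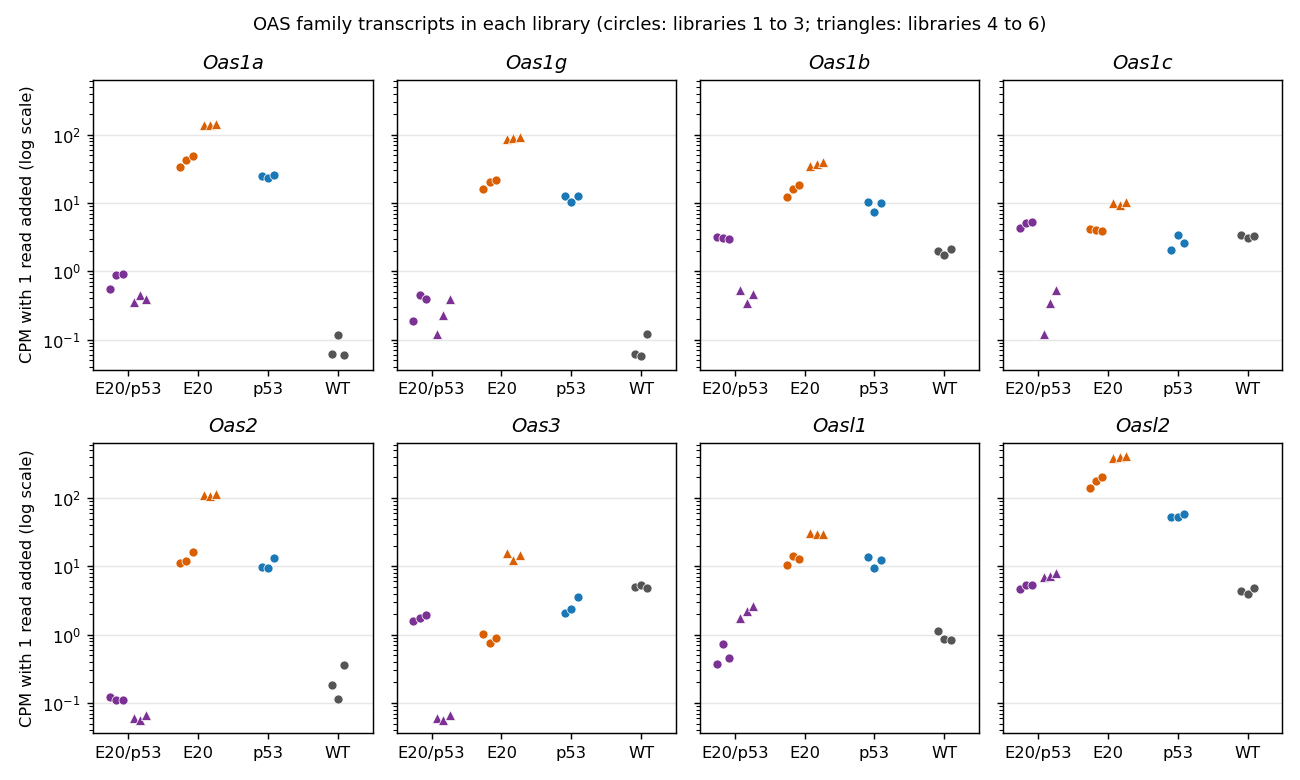
CPM with 1 read added (log scale) of each member in each library, by group from E20/p53 to WT. Circles are libraries 1 to 3 and triangles libraries 4 to 6. For Oas1a, Oas1g and Oas2 the E20/p53 and WT points lie near the bottom of the panel, every E20 triangle lies above every E20 circle, and the E20/p53 triangles of Oas1a, Oas1b, Oas1c, Oas2 and Oas3 lie below the circles while those of Oasl1 and Oasl2 lie above.

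Oas1b is the mouse flavivirus resistance gene, which is cut short by a stop codon in most laboratory strains and is annotated here as a polymorphic pseudogene, and its protein makes no 2-5A. It was at 3.15, 2.97 and 2.92 CPM in E20/p53 1 to 3 and at 0.476, 0.284 and 0.395 CPM in E20/p53 4 to 6, against 12.3, 16.1 and 18.2 CPM in E20 1 to 3 and 34.9, 36.9 and 39.4 CPM in E20 4 to 6. In p53 it was at 10.1, 7.30 and 10.02 CPM and in WT at 1.92, 1.67 and 2.05 CPM. The 6 sets did not overlap, and WT lay between both E20/p53 sets. The log2 change in E20/p53 against E20 was -4.36 (SE 0.56). Oas1b fell in E20/p53 against p53 (log2 change -2.97 with SE 0.68, adjusted p = 0.00481), and rose in E20 against WT (log2 change 3.63 with SE 0.68, adjusted p = 3.0e-04) and in p53 against WT (log2 change 2.24 with SE 0.79, adjusted p = 0.025). The last call was lost on leaving out any 1 WT library, p53 library 1 or p53 library 3, with adjusted p between 0.0502 and 0.0647. In E20/p53 against WT it was not called (log2 -0.74, adjusted p = 0.394), and the sets went opposite ways, at log2 0.67 without E20/p53 4 to 6 and -2.14 without E20/p53 1 to 3 (adjusted p = 0.15 and 2.8e-04).

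Oas1c, whose start lies back to back with that of Oas1b, had r = 0.799 with it over the 18 libraries, as a description. Oas1c was at 4.20, 5.10 and 5.23 CPM in E20/p53 1 to 3 and at 0.0596, 0.284 and 0.461 CPM in E20/p53 4 to 6, against 4.09, 3.92 and 3.81 CPM in E20 1 to 3 and 9.88, 9.21 and 10.4 CPM in E20 4 to 6. In p53 it was at 2.01, 3.39 and 2.52 CPM and in WT at 3.35, 3.05 and 3.25 CPM. E20/p53 1 to 3 lay above E20 1 to 3 in every library, and p53 and WT overlapped. Its log2 change in E20/p53 against E20 was -2.44 (SE 0.80) and came down to -0.37 without E20/p53 4 to 6. In none of the other 5 comparisons was Oas1c called, with adjusted p from 0.224 to 0.837. Both E20/p53 sets went opposite ways here as well. Without E20/p53 1 to 3 Oas1c was called lower against p53 (log2 -3.25, adjusted p = 2.9e-04) and against WT (log2 -3.56, adjusted p = 3.5e-05), while without E20/p53 4 to 6 it was at log2 0.88 against p53 and 0.58 against WT (adjusted p = 0.0641 and 0.228). An antisense gene overlaps an exon of Oas1c, as another does for Oasl1, and neither is in the table, so reads of those pairs may be mixed where counting did not use strand. Of the 50-base stretches of Oas1c 9.82% occur in other Oas1 genes.

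Oas2 and Oas3 encode the larger synthetases, built from repeated OAS units. Oas2 was at 0.0617, 0.056 and 0.0562 CPM, 1 read each, in E20/p53 1 to 3 and had no read in E20/p53 4 to 6, against 11.3, 11.8 and 16.0 CPM in E20 1 to 3 and 111, 108 and 116 CPM in E20 4 to 6. It was at 9.84, 9.38 and 13.0 CPM in p53 and at 0.124, 0.0575 and 0.301 CPM in WT. Oas2 was thus near the limit of detection in both E20/p53 and WT, and p53 overlapped with E20 1 to 3. Scaled to depth, Oas2 reads were fewer in E20/p53 than in E20 by a factor of 2071. This is a description that pools both E20 sets, which averaged 13.0 and 112 CPM. Oas2 reads were fewer in E20/p53 than in p53 by a factor of 364 (95% exact interval 124 to 1772, counting error only).

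In the fit, Oas2 had a log2 change of -8.83 in E20/p53 against E20 (SE 0.61) and fell in E20/p53 against p53 (log2 change -7.00 with SE 0.75, adjusted p = 6.4e-06). It rose in E20 against WT (log2 change 7.59 with SE 0.75, adjusted p = 3.5e-07) and in p53 against WT (log2 change 5.76 with SE 0.86, adjusted p = 4.3e-05). E20 against p53 missed the threshold (log2 change 1.83 with SE 0.75, adjusted p = 0.0741). It passed on leaving out E20 library 1, 2 or 3 (adjusted p 0.0303 to 0.0489). E20/p53 against WT was not called (log2 -1.24, adjusted p = 0.184), with 3 reads in 6 E20/p53 libraries and 8 reads in 3 WT libraries.

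Oas3 had its own order. It was at 1.54, 1.68 and 1.85 CPM in E20/p53 1 to 3 and had no read in E20/p53 4 to 6, against 0.954, 0.701 and 0.817 CPM in E20 1 to 3 and 15.4, 12.4 and 14.6 CPM in E20 4 to 6. It was at 2.01, 2.28 and 3.47 CPM in p53 and at 4.84, 5.29 and 4.75 CPM in WT. WT was higher here than any set but E20 4 to 6, and E20 1 to 3 was lower than E20/p53 1 to 3 in every library. The ratio of E20 4 to 6 over E20 1 to 3, 17.1, was the highest of the 8 members, for which it otherwise ran from 2.31 to 8.60. Oas3 fell in E20/p53 against WT (log2 change -3.95 with SE 1.37, adjusted p = 0.0252), but not on leaving out any 1 WT library (adjusted p 0.0654 to 0.0708) or E20/p53 4 to 6 (log2 -1.52, adjusted p = 0.257). In E20/p53 against p53 (log2 -2.99, adjusted p = 0.118), E20 against p53 (0.45, 0.84), E20 against WT (-0.51, 0.772) and p53 against WT (-0.96, 0.628) it was not called. The fit takes its spread from all groups. Every p53 library still lay below every WT library, with a read ratio of 0.524 (95% exact interval 0.418 to 0.654, counting error only). With p53 and WT alone, where 12302 of all 15235 genes were called, limma called Oas3 lower (adjusted p = 7.7e-04). Its log2 change in E20/p53 against E20 was -3.44 (SE 1.12), and those groups overlapped.

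Oasl1 and Oasl2 carry ubiquitin-like tails. Mouse Oasl1 makes no 2-5A and is known for holding back translation of Irf7, while Oasl2 is an active synthetase. Oasl2 was at 4.63, 5.21 and 5.34 CPM in E20/p53 1 to 3 and at 7.03, 7.27 and 7.97 CPM in E20/p53 4 to 6, against 139, 175 and 201 CPM in E20 1 to 3 and 379, 401 and 408 CPM in E20 4 to 6. In p53 it was at 51.8, 53.04 and 58.7 CPM and in WT at 4.22, 3.85 and 4.81 CPM. E20/p53 1 to 3 overlapped with WT, and the other neighbours in this order did not overlap. Its log2 change in E20/p53 against E20 was -5.39, with the smallest SE of the 8 members (0.25). Oasl2 fell in E20/p53 against p53 (log2 change -3.14 with SE 0.31, adjusted p = 2.3e-06), and rose in E20 against p53 (log2 change 2.25 with SE 0.31, adjusted p = 4.1e-05), in E20 against WT (log2 change 5.90 with SE 0.31, adjusted p = 1.7e-10) and in p53 against WT (log2 change 3.65 with SE 0.35, adjusted p = 4.0e-07). None of these 4 calls was lost on leaving out 1 library. Oasl2 is checked only weakly by this, as the libraries of a set were nearly alike (r of at least 0.991). It was not called in E20/p53 against WT (log2 0.51, adjusted p = 0.181).

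Oasl1 was at 0.309, 0.673 and 0.393 CPM in E20/p53 1 to 3 and at 1.67, 2.16 and 2.57 CPM in E20/p53 4 to 6, against 10.4, 14.1 and 12.9 CPM in E20 1 to 3 and 30.9, 29.7 and 29.9 CPM in E20 4 to 6. In p53 it was at 13.6, 9.45 and 12.3 CPM and in WT at 1.06, 0.805 and 0.782 CPM. WT lay between both E20/p53 sets, and p53 overlapped with E20 1 to 3. Oasl1 and Oasl2 were the members whose level was higher in E20/p53 4 to 6 than in E20/p53 1 to 3, by ratios of 4.65 and 1.47, against ratios of 0.0554 to 0.656 for the members of the Oas1 group and no read for Oas2 and Oas3. The log2 change of Oasl1 in E20/p53 against E20 was -4.23 (SE 0.47). It fell in E20/p53 against p53 (log2 change -3.50 with SE 0.57, adjusted p = 3.4e-04) and rose in E20 against WT (log2 change 4.38 with SE 0.57, adjusted p = 8.3e-06) and in p53 against WT (log2 change 3.65 with SE 0.66, adjusted p = 2.5e-04). It was not called in E20 against p53 (log2 0.73, adjusted p = 0.365) or in E20/p53 against WT (log2 0.15, adjusted p = 0.851).

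Per length of transcript, so that levels can be compared between genes, Oas1a was highest in E20 4 to 6, at 74.3 CPM per kb, ahead of Oasl2 at 62.1, Oas1g at 38.5, Oas2 at 25.2, Oas1b at 18.6, Oasl1 at 11.6, Oas1c at 4.09 and Oas3 at 2.00 CPM per kb. In E20/p53 1 to 3 Oas1c led at 2.01 CPM per kb and in E20/p53 4 to 6 Oasl2 at 1.16 CPM per kb. In WT Oas1c led at 1.34 CPM per kb. Oasl2 led in E20 1 to 3 at 26.9 CPM per kb, ahead of Oas1a at 22.3 CPM per kb, and in p53 Oas1a led at 13.1 CPM per kb. The leading member thus differed between sets of the same group, and Oasl2 led in sets with a high as well as a low family total. The lengths are unions of annotated exons, 6374 bases for Oasl2 and 1885 bases for Oas1a, so the order of both genes depends on the length used. Stretches shared by Oas1a and Oas1g also make the places of those genes in the order uncertain.

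Pde12, which degrades 2-5A, and Abce1, known as an inhibitor of 2-5A action and as a ribosome recycling factor, varied far less than the synthetases. Pde12 averaged 28.3 and 29.9 CPM in the E20/p53 sets, 30.9 and 22.1 CPM in the E20 sets, 37.3 CPM in p53 and 20.8 CPM in WT. Abce1 averaged 340 and 396 CPM in the E20/p53 sets, 264 and 235 CPM in the E20 sets, 377 CPM in p53 and 201 CPM in WT. Both fell in E20 against p53 (Pde12 log2 -0.52, SE 0.14, adjusted p = 0.00936, and Abce1 log2 -0.60, SE 0.08, adjusted p = 2.9e-05) and both rose in p53 against WT (Pde12 log2 0.84, adjusted p = 3.7e-04, and Abce1 log2 0.91, adjusted p = 5.7e-07).

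Interferon transcripts themselves were scarce. Of 10 interferon genes looked for, 5 had no read in any library, none passed the filter, and together they held 59 reads, at most 7 in a library. Ifnb1, the gene of interferon beta, had 22 reads in all, of which 1 lay in E20/p53 1 to 3, none in E20/p53 4 to 6, 4 in E20 1 to 3, 15 in E20 4 to 6, 1 in p53 and 1 in WT. Ifne, which encodes the epithelial interferon epsilon, had 32 reads, of which 12 lay in E20/p53 1 to 3 and 17 in WT. These counts are too low for the test and are given as they stand.

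The genes around the pathway were counted from lists by role. In p53 against WT the median log2 change was 1.62 for the sensors, 0.50 for the receptor and STAT genes, -0.10 for the interferon regulatory factors and 0.81 for the feedback genes, beside 0.04 over all genes tested. For E20/p53 against p53 these medians were -0.66, -0.07, 0.05 and -0.90, beside 0.02 over all genes. Beside the counts that follow, the shares of all genes tested were 12.9% lower and 12.9% higher in E20/p53 against p53, 14.5% higher and 16.4% lower in E20 against p53, 29.0% higher and 26.4% lower in E20 against WT, and 29.3% higher and 24.9% lower in p53 against WT. Of 10 sensors of RNA or DNA, 6 fell and 0 rose in E20/p53 against p53, 6 rose and 1 fell in E20 against p53, 9 rose and 1 fell in E20 against WT, and 8 rose and 1 fell in p53 against WT. Ddx58, which encodes the RNA sensor RIG-I, averaged 42.5 and 63.9 CPM in the E20/p53 sets, 178 and 315 CPM in the E20 sets, 98.6 CPM in p53 and 28.9 CPM in WT. Mavs, the adaptor downstream of RIG-I, was the gene that fell against WT, in E20 by 0.85 and in p53 by 0.67 on the log2 scale (adjusted p = 3.3e-08 and 4.1e-06). Eif2ak2, the kinase PKR that halts translation, rose in p53 against WT (log2 1.11, adjusted p = 0.00321) and was not called in E20/p53 against p53 (log2 -0.51, adjusted p = 0.132). Adar, which edits double-stranded RNA, fell in E20/p53 against p53 (log2 -0.51, adjusted p = 0.0265) and rose in E20 against p53 (log2 0.53, adjusted p = 0.0185).

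Of 11 receptor, kinase and STAT complex genes, 2 fell and 2 rose in E20/p53 against p53, 6 rose and 0 fell in E20 against p53, 7 rose and 2 fell in E20 against WT, and 4 rose and 3 fell in p53 against WT. In p53 against WT and in E20/p53 against p53 these counts are near the shares of all genes called, which were 29.3% higher and 24.9% lower in p53 against WT and 12.9% each way in E20/p53 against p53. Stat2, part of the complex that binds the ISRE, averaged 48.8 and 21.7 CPM in the E20/p53 sets, 124 and 307 CPM in the E20 sets, 69.4 CPM in p53 and 36.5 CPM in WT. It fell in E20/p53 against p53 (log2 -1.09, adjusted p = 0.0478) and rose in E20 against p53 (log2 1.495, adjusted p = 0.00743). The kinase Jak2 was highest in WT, with averages of 77.3 and 84.9 CPM in the E20/p53 sets, 72.8 and 72.6 CPM in the E20 sets, 58.0 CPM in p53 and 107.9 CPM in WT. It rose in E20/p53 against p53 (log2 0.48, adjusted p = 2.4e-05) and fell in p53 against WT (log2 -0.90, adjusted p = 2.7e-08). The receptor chain Ifnar1 ran from 59.5 to 146 CPM and the kinase Jak1 from 191 to 341 CPM over the 6 set means. Ifnar1 rose in E20 against WT (log2 1.06, adjusted p = 1.6e-05) and in E20 against p53 (log2 0.56, adjusted p = 0.00829).

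Of 6 interferon regulatory factors, 1 fell and 1 rose in E20/p53 against p53, 2 rose and 0 fell in E20 against p53, and 2 rose and 0 fell in p53 against WT. With 6 genes, 1 each way in E20/p53 against p53 (all genes, 12.9% each way) and 2 higher in p53 against WT (all genes, 29.3%) are near the background, and in E20 against p53 14.5% of all genes rose. Irf7, the factor that amplifies interferon production, averaged 5.802 and 1.23 CPM in the E20/p53 sets, 97.5 and 224 CPM in the E20 sets, 28.4 CPM in p53 and 2.695 CPM in WT. It fell in E20/p53 against p53 (log2 change -3.38 with SE 0.55, adjusted p = 3.2e-04) and rose in p53 against WT (log2 change 3.37 with SE 0.63, adjusted p = 3.4e-04). Irf3, the factor that starts the response, and Irf2 stayed between 22.9 and 49.8 CPM over the 6 set means, and Irf1 between 62.5 and 111 CPM. Of 6 genes of feedback and of the ISG15 conjugation pathway, 3 fell and 0 rose in E20/p53 against p53, 4 rose and 0 fell in E20 against p53, and 3 rose and 0 fell in p53 against WT. Of all genes 12.9% fell in E20/p53 against p53, 14.5% rose in E20 against p53 and 29.3% rose in p53 against WT. Usp18, which damps signalling at the interferon receptor, averaged 1.28 and 1.503 CPM in the E20/p53 sets, 68.4 and 242 CPM in the E20 sets, 34.4 CPM in p53 and 0.437 CPM in WT. Isg15, the ubiquitin-like protein that is conjugated in this response, averaged 6.58 and 17.4 CPM in the E20/p53 sets, 227 and 306 CPM in the E20 sets, 86.5 CPM in p53 and 1.74 CPM in WT.

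**Figure D4:**
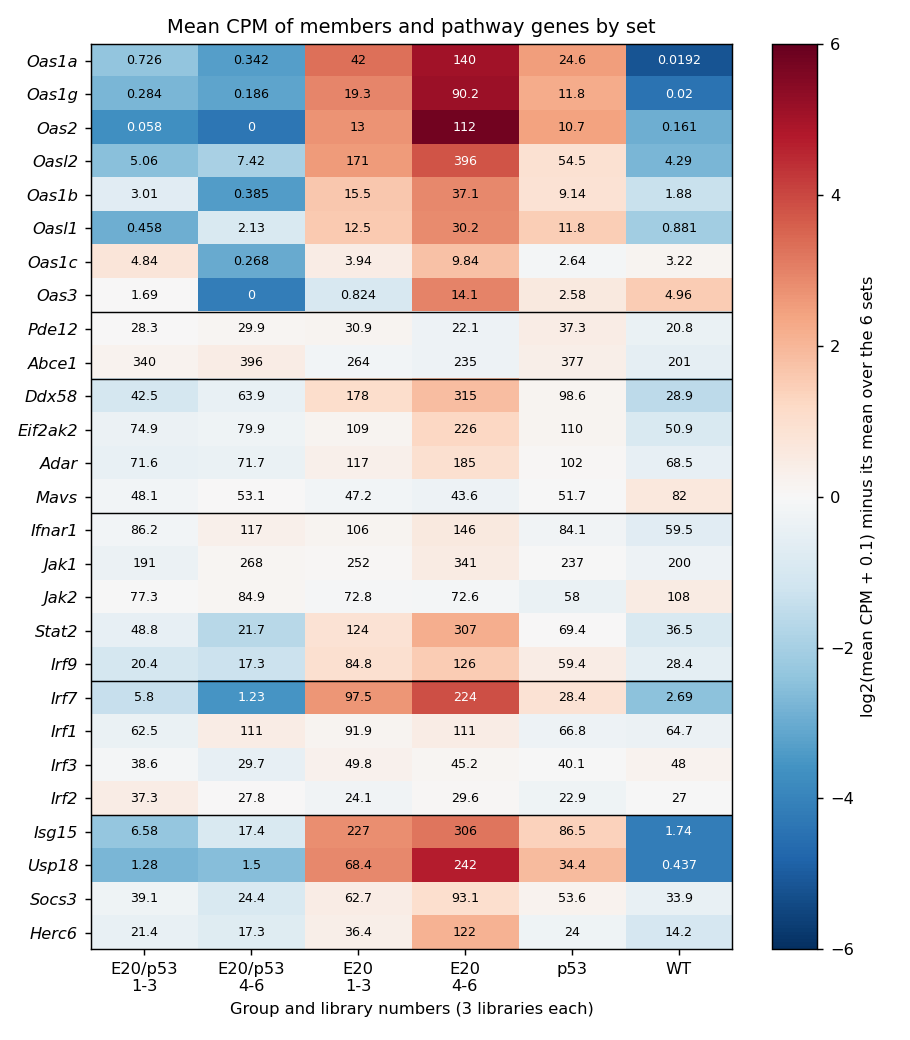
Mean CPM in each set (printed number, n = 3 libraries) of the 8 members and 19 pathway genes. Colour is log2 of mean CPM plus 0.1, minus its mean over the 6 sets, so that red is above and blue below a gene's own average. Oas1a, Oas1g, Oas2, Oasl2, Irf7, Isg15 and Usp18 are red in both E20 sets and blue in both E20/p53 sets and WT, while Pde12, Abce1 and Jak1 are pale throughout.

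The genes most like the family mean over the 18 libraries, among all tested genes that are no members, were Socs3 (Pearson's r 0.986), Ifi27l2a (0.983), Irf7 (0.983), Bst2 (0.982), Nod1 (0.979), Igtp (0.975), Irf9 (0.975), Phf11d (0.974), Irgm2 (0.971) and Mx2 (0.970). The libraries of a set share their state, so these values describe 6 sets more than 18 points. Among the members, Oas2 (r 0.984) and Oas1b (0.976) lay nearest to the mean of which they are part, and Oas1c (0.721) and Oas3 (0.661) farthest. Between members r ran from 0.287 for Oas3 with Oasl1 to 0.989 for Oas1a with Oas1g, and Oas1c with Oas3 had 0.884. Ifi27l2a averaged 1.16 and 0.226 CPM in the E20/p53 sets, 82.0 and 224 CPM in the E20 sets, 19.1 CPM in p53 and 0.522 CPM in WT. Socs3, which restrains cytokine signalling, moved far less, between 24.4 and 93.1 CPM over the set means.

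Markers of immune cells were set beside these levels, since immune cells also express OAS genes. Of 8 leukocyte markers, Cd3e and Adgre1 had no read in any set. Ptprc, which all leukocytes carry, had at most 3 reads in any library, and none in E20 4 to 6 or E20/p53 4 to 6. Counts this low cannot tell the sets apart. The summed level of the 8 markers was 19.2 to 23.0 CPM in E20/p53 1 to 3, 3.69 to 4.05 CPM in E20/p53 4 to 6, 17.2 to 20.45 CPM in E20 1 to 3, 3.09 to 4.47 CPM in E20 4 to 6, 4.22 to 4.73 CPM in p53 and 15.8 to 17.4 CPM in WT. Nearly all of this sum was Cd68 and Lyz2, whose levels were ordered differently over the sets. Cd68 averaged 20.9 and 3.06 CPM in the E20/p53 sets, 3.32 and 1.51 CPM in the E20 sets, 3.34 CPM in p53 and 16.2 CPM in WT. Lyz2, the lysozyme of macrophages, averaged 0.264 and 0.672 CPM in the E20/p53 sets, 15.1 and 2.19 CPM in the E20 sets, 0.733 CPM in p53 and 0.0815 CPM in WT. Like 6 of the members, Lyz2 rose in p53 against WT (log2 2.60, adjusted p = 0.0238) and in E20 against WT (log2 5.55, adjusted p = 1.9e-05), but it was highest in E20 1 to 3 and not in E20 4 to 6. Of the markers of plasmacytoid dendritic cells, which are strong producers of interferon, Siglech had 1 read in 1 of the 18 libraries, in E20/p53. Tcf4, which other cell types also express, averaged 237.5 and 192.2 CPM in the E20/p53 sets, 264.6 and 309.8 CPM in the E20 sets, 166.8 CPM in p53 and 144.4 CPM in WT, and rose in E20 against p53 (log2 0.78, adjusted p = 2.6e-05). Unlike the members, Tcf4 also rose in E20/p53 against p53 (log2 0.36, adjusted p = 0.0162). Against WT it rose in E20 (log2 0.99, adjusted p = 5.7e-07) and in E20/p53 (log2 0.56, adjusted p = 2.4e-04). It was not called in p53 against WT (log2 0.20, adjusted p = 0.153). Skeletal muscle markers summed to 2.02 to 2.69 CPM in E20/p53 1 to 3, 638 to 681 CPM in E20/p53 4 to 6, 662 to 742 CPM in E20, 1821 to 1966 CPM in p53 and 2.89 to 3.45 CPM in WT. The fibroblast sum in E20/p53 4 to 6 was above that of E20 and the muscle sum overlapped with it, but single markers went both ways. Col1a1 averaged 9256 CPM in E20/p53 4 to 6, against 5231 and 5012 CPM in the E20 sets. Dcn averaged 15.4 CPM, against 182.8 and 89.4 CPM. Des averaged 368 CPM, against 554.5 and 640 CPM, and Myod1 9.46 CPM, against 0.0844 and 0.157 CPM. The part of the cell make-up in the OAS levels was not tested.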

How the data were processed

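RNA of 18 libraries was made into stranded mRNA libraries (TruSeq Stranded mRNA LT, per the labels' protocols). The submitters' processing notes name bcl2fastq 1.8.4, Trimmomatic, featureCounts and the build mm10. No source used here gives the aligner or the strand setting. The deposited values are log2 units, in which the authors added 1 to each gene's reads and divided by a scaled total of the library, and 100% of them returned whole reads to within 0.001. That total lay between 0.939 and 1.12 of the read sum, and CPM here are reads over it, times 1000000.

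The deposited unit is log2, so limma 3.58.1 in R 4.3.3 was run on it, with a mean-variance trend, a mean per group, all 18 libraries in 1 fit (14 residual degrees of freedom) and Benjamini-Hochberg adjustment. Genes were tested with 0.635 CPM (10 reads at the median depth) in 3 libraries and 15 reads in all, which left 15235 of 26143. The fit was tested on simulated data, with independent libraries and no sets within a group, so that test cannot cover the spread between sets. Read ratios, except in E20/p53 against E20, have exact 95% intervals, which cover counting error only, as PCR reads are not independent molecules. Positions come from GENCODE M21. Libraries with the same replicate number were not treated as paired in the main fit.

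Members, lists, tests and alternatives were chosen with earlier results of these data known. Named were all members, up to 4 genes of each list by mean level, and the 10 genes most like the family. Some further genes of the pathway are not reported here. Alternatives were other scalings and filters, log2 of CPM plus 1, a replicate block, the compared groups alone, set means, and each library or set left out.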

Additional observations from a re-analysis of the deposited data

How the results depend on the processing

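Under the other scalings and filters, the counts of called members in the 5 comparisons that did not choose the family were the same as in the report. Scaling by the plain sum of reads moved the median log2 change of all genes by 0.11 in E20/p53 against E20, -0.17 in E20 against WT and -0.14 in p53 against WT. With 1 mean per set, 0 members and at most 8 of all 15235 genes were called in any comparison, as 2 residual degrees of freedom remain. In E20 against p53, the 3 calls became 1 with the replicate block, 1 without E20 4 to 6, 5 with the compared groups alone, and 1 to 4 on leaving out 1 library. Of all 15235 genes, 4709 were called there in the report, 5664 with the replicate block and 6433 with the compared groups alone. In E20/p53 against WT, the 3 calls became 1 with log2 of CPM plus 1, 1 with the replicate block, 5 without E20/p53 1 to 3, and 1 to 3 on leaving out 1 library. Of all genes, 7333 were called there in the report, 7352 with log2 of CPM plus 1 and 7460 with the replicate block. Leaving out 1 library gave 6 calls in E20/p53 against p53, 6 in E20 against WT and 5 to 6 in p53 against WT.

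Deviations from the group means were not alike between same-numbered libraries (r -0.054 to 0.074 over 21 pairs, 0 over 0.1). In E20 and E20/p53 these deviations include the difference between sets, which could hide a pairing, so the check cannot decide. The replicate block is not read as a paired analysis. With the replicate block the counts of members were 6 in E20/p53 against p53, 6 in E20 against WT and 6 in p53 against WT. Of all 15235 genes, 6410, 8091 and 8851 were then called in these comparisons.

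Directions turned for members that were not called. Without E20/p53 4 to 6, the log2 change against WT was 0.67 for Oas1b, 0.58 for Oas1c and -0.91 for Oasl1, and against p53 it was 0.88 for Oas1c. Oas3 turned to -1.55 in E20 against p53 without E20 4 to 6 and to 1.49 in E20 against WT without E20 1 to 3. Oasl1 turned to -0.13 in E20 against p53 and to -0.70 in E20/p53 against WT with the replicate block, and ran from -0.12 to 0.45 in E20/p53 against WT on leaving out 1 library. The cause was not tested. Depth limits Oas1a, Oas1g and Oas2, which had 1, 1 and 8 reads in WT, and Oas2 with 3 reads in E20/p53.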
